A study of Mus musculus with 4 samples.

Results

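Solute carriers are membrane proteins that move nutrients, metals, vitamins, neurotransmitters and inorganic ions across the cell surface and the membranes of organelles. Here they were taken as every array probe whose platform gene symbol was Slc or Slco followed by a family number, a letter and a member number. The rule found 273 probes among the 22702 of the array, for 251 of 15096 genes with a symbol. It also takes in Slc9a3r1 and Slc9a3r2, which are scaffold proteins named after the exchanger they bind and carry no solute. The probes were grouped by the family number in the symbol and by the usual substrate of the family.

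The arrays asked which transcripts differ between metanephric mesenchyme (MM), from which the nephrons of the permanent kidney form, and intermediate mesoderm (IM), the embryonic source of kidney and gonad. Both tissues were dissected from mouse embryos at 10.5 dpc, with both sexes used and the RNA amplified before labelling. No treatment or mutant allele is named in the labels, and the sources used here do not give strain, number of embryos or pooling. There were 4 arrays, each carrying both tissues side by side, with MM in channel 1 on arrays 1 and 2 and in channel 2 on arrays 3 and 4. Every value below is a log2 ratio, and a positive one means higher in MM. That direction is likely and not settled, because the labels do not say which dye each channel held. The labels also do not say whether arrays share an RNA extract, so the p-values concern these 4 hybridisations and nothing wider, and their spread may be technical. In whole tissue, fewer cells of a type and less RNA per cell cannot be told apart.

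Solute carriers set which substrates a cell can take up, release or store, and each family tends to keep to one chemical class. In the mature kidney they are known for reabsorbing glucose, amino acids, phosphate and bicarbonate along the nephron and for secreting organic acids and bases. Zinc is handled by a pair of opposed families, with Slc39 proteins bringing zinc into the cytosol and Slc30 proteins taking it out of the cytosol into organelles or out of the cell.

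Promoters of zinc carriers are printed first because zinc carriers gave 4 of the 5 highest mean ratios among probes with 4 measured values above the floor. Slc39a8, Slc30a9, Slc39a7 and Slc30a4 were the genes concerned, and Slc30a1 is added as the zinc exporter called lower in MM. Each sequence is RefSeq's in the build GRCm38.p6 and runs from 250 bases before to 50 bases after an annotated start. Capitals mark matches, on either strand, to TGCACNC and TGCGCNC, the core letters of the metal response element to which the zinc sensor Mtf1 binds.
Slc39a7, chr17:34031641-34031940, minus strand: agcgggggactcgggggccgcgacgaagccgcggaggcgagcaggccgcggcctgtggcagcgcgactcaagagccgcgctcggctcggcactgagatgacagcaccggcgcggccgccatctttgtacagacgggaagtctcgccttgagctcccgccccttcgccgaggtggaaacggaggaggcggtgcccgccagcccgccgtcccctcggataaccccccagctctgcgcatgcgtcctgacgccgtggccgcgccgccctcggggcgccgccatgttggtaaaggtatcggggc
Slc30a9, chr5:67306705-67307004, plus strand: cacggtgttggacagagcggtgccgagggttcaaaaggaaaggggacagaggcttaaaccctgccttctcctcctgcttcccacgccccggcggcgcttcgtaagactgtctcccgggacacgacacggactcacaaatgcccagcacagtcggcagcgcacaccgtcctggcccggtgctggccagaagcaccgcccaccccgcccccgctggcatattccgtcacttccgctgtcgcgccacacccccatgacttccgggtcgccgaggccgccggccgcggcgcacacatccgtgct
Slc39a8 upstream entry, chr3:135825029-135825328, plus strand: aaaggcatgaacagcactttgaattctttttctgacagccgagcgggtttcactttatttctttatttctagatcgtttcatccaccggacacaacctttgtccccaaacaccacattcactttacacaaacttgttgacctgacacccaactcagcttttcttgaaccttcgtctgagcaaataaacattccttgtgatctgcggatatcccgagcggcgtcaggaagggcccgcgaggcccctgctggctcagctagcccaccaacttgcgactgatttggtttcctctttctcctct
Slc39a8 downstream entry, chr3:135825407-135825706, plus strand: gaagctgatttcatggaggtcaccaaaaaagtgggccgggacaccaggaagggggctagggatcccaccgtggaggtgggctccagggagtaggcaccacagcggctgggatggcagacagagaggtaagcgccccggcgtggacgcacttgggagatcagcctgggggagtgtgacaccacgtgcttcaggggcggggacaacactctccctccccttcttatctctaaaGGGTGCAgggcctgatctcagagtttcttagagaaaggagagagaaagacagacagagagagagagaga
Slc30a4, chr2:122702614-122702913, minus strand: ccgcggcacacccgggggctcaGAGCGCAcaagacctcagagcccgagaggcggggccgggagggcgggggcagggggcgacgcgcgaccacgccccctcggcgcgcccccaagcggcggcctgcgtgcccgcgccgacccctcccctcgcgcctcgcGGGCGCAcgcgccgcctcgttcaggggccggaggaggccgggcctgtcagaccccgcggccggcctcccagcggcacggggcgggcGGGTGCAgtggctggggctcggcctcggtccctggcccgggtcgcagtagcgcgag
Slc30a1, chr1:191906531-191906830, plus strand: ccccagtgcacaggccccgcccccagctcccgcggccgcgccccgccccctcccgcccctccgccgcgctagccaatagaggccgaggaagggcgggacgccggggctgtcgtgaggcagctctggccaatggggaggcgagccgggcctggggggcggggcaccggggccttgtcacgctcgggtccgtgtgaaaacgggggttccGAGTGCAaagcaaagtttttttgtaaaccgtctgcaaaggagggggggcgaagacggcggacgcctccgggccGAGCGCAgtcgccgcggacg
Of these promoters, Slc39a7, Slc30a9 and the upstream entry of Slc39a8 held no match. The downstream entry of Slc39a8 held 1, Slc30a1 held 2 and Slc30a4 held 3. Among 32851 promoters of the same length in the RefSeq table, 12.6% held TGCACNC, 15.4% held TGCGCNC and 25.7% held either. Of the 24 metal carrier genes, 20 had a promoter entry, with 25 promoters in all, and 12 of these (48.0%), from 11 genes, held a match. A match is a description of letters and not a site of binding.

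Of the 273 probes, 170 (62.3%) from 160 genes had a value on all 4 arrays and entered the test, against 62.5% of all probes. Values were present on 3 arrays for 41 probes, on 2 for 61 and on 1 for 1. Probes read on arrays 1 and 2 alone numbered 57, and those read on arrays 3 and 4 alone numbered 4. A value of -6.64, the log2 of a ratio of 0.01, was the lowest the table held. It is called the floor here, and no fold is read from it. It occurred in 26 solute carrier probes (9.52%, against 11.4% of all probes). It was reached 18 times on array 3 and 19 times on array 4, and by 0 members on arrays 1 and 2. Among the tested probes 12 had a floor value.

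Ratios were fitted with limma across all 14184 probes with 4 values, with 1 term for tissue and another for the orientation of the channels, and p-values were adjusted over all of those probes. The error in that fit comes from arrays of the same orientation alone, so its p-values leave out the gap between orientations. In that fit 45 of the 170 solute carrier probes (26.5%) were higher in MM, where the share of all tested probes was 23.8%. Lower in MM were 51 (30.0%), where the share of all tested probes was 38.1%, and 74 did not pass. Of the 51 lower calls, 10 held a floor value and 41 held none. With array 3 left out, the count higher was 29 (17.1%, against 17.7% of all tested probes) and the count lower 33 (19.4%, against 23.2%). With array 4 left out the count lower was 32 (18.8%, against 23.7%).

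A stricter count asked that a probe also pass without the orientation term, which makes the difference between channel orientations part of the error. In both fits 21 members were higher (12.4%, against 13.6% of all tested probes) and 13 were lower (7.65%, against 14.4%). Among these, 8 members were at least 2-fold higher in MM (4.71%, against 4.31%) and 0 were at least 2-fold lower (against 0.938%). The 0 concerns both fits together, and the largest lower mean among those 13 was 1.84-fold. The median ratio of the 158 tested members without a floor value was -0.01, with quartiles of -0.20 and 0.24, and the median of all tested probes without a floor value was -0.05. The shares of solute carriers called higher were thus near those of the whole array. The same whole-array shares are the background for each class and family count below. A further 62 members passed with the orientation term only, and 51 of these did not pass with at least 1 of the arrays left out.

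Pairs of arrays with the same orientation were closer to each other than pairs with opposite orientations. Across those 158 members, which are not independent replicates and share the 4 hybridisations, Pearson's r was 0.947 for arrays 1 and 2 and 0.925 for arrays 3 and 4. Between opposite orientations it ran from 0.141 to 0.358. The orientation term passed the threshold for 70 of the 170 members (41.2%, against 44.6% of all tested probes). All 4 arrays had the same sign for 83 members (48.8%, against 49.4%), of which 40 were positive and 43 negative. Slco6d1, an organic anion carrier, was the plainest case of a member that turned with the channel: it read -2.41 and -1.90 on arrays 1 and 2, against 2.97 and 2.87 on arrays 3 and 4. Its mean of 0.38 ± 2.94 (SD, n = 4) passed with the orientation term (adjusted p = 0.0496) and not without it (adjusted p = 0.873), and it failed to pass with array 2, 3 or 4 left out.

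**Figure D1:**
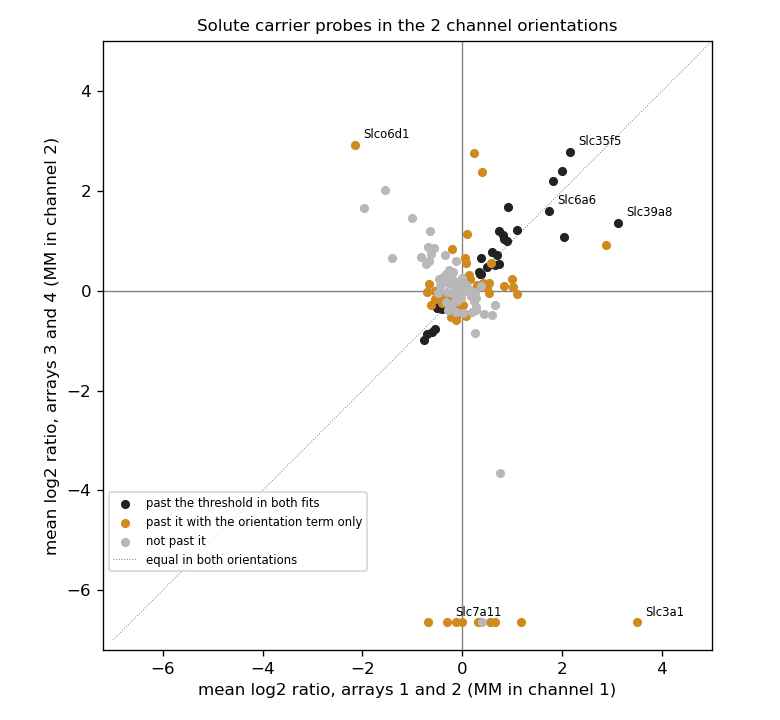
Mean log2 ratio (MM over IM) of each of the 170 tested solute carrier probes on arrays 3 and 4 (vertical axis) against arrays 1 and 2 (horizontal axis), coloured by whether they passed in both fits, with the orientation term only, or in neither; points at -6.64 are floor values. The 34 members that passed in both fits lie at the upper right and the lower left, and 56 of the 158 members without a floor value (35.4%, against 39.0% of all such probes) had opposite signs in the 2 orientations.

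Markers of the dissected tissues and of neighbouring cell types gave the following background. Kidney mesenchyme genes were higher in MM for 4 of 8 tested probes, among them Six2 at 3.00 and Gdnf at 1.92, and lower for Wt1. Endoderm markers were higher for 7 of 7 tested probes, with Afp at 1.86 and Ttr at 1.17, and 6 of them in both fits. The other, Apob, changed sign with the channel, at -0.44, -0.72, 1.35 and 1.86. The endoderm marker Foxa2 was not tested. One of its probes read -1.54, -0.68 and the floor on arrays 1, 2 and 4, and another -3.65, 2.76 and 0.42 on arrays 1 to 3. Neural markers were called lower for 8 of 8, but for only 4 in both fits. Of the others, 1 Ncam1 probe was positive on arrays 1 and 2 and at the floor on arrays 3 and 4. Another Ncam1 probe changed sign with the channel, as did Stmn2, at -0.46, -0.32, 0.09 and 0.11. Gonad and adrenal markers were lower for 4 of 5, of which Wt1 is the probe already counted above, muscle markers lower for 4 and higher for 1 of 5, and endothelial markers higher for 3 and lower for 2 of 6. Of 8 erythroid probes 3 were called higher and 3 lower, with 0 higher and 2 lower in both fits, since the 3 higher ones were negative on arrays 1 and 2 and positive on arrays 3 and 4. The 1 leukocyte marker tested, Cd68, was lower at -0.53.

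Metal carriers made up 4 of the 8 members that were at least 2-fold higher in MM in both fits. Of 24 probes 19 were tested, and 7 were higher in MM, 4 lower and 8 did not pass; in both fits 4 were higher (21.1%, against 13.6% of all tested probes) and 0 lower. The median of the 19 was 0.08. The Slc30 exporters contributed 4 higher and 1 lower of 5 tested, of which 1, Slc30a9, passed in both fits. The Slc39 importers contributed 2 higher, both in both fits, and 1 lower of 9. With arrays centred on their medians or scaled to the same spread, the Slc30 counts did not change, whereas the single lower call among Slc39 genes did not pass under either.

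Slc39a7 releases zinc from the endoplasmic reticulum and Golgi into the cytosol. It read 1.91, 1.71, 2.23 and 2.17 on arrays 1 to 4, high on every array and slightly higher in the orientation with MM in channel 2. The mean was 2.01 ± 0.24 (SD, n = 4), a 4.02-fold difference (adjusted p = 0.000467 with and 0.00268 without the orientation term). Slc30a9, a zinc exporter of mitochondria, read 1.74, 2.26, 2.37 and 2.41. Its mean of 2.19 ± 0.31 (SD, n = 4) was a 4.58-fold difference (adjusted p = 0.00125), with array 1 lowest.

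Slc39a8, which imports zinc, manganese and cadmium at the cell surface, was higher on every array but unequally so. It read 3.22 and 3.04 on arrays 1 and 2, against 1.07 and 1.66 on arrays 3 and 4. The mean was 2.25 ± 1.05 (SD, n = 4), a 4.74-fold difference (adjusted p = 0.00156 with and 0.0352 without the orientation term). On arrays 3 and 4 alone the adjusted p was 0.0664. Slc30a4, which loads zinc into vesicles and is needed for zinc in milk, had the same tilt, at 3.33, 2.42, 0.53 and 1.29. Its mean of 1.89 ± 1.24 (SD, n = 4) passed with the orientation term (adjusted p = 0.00779) and not without it (0.0758), and leaving out 1 array raised the first of these to as much as 0.0667.

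The other zinc carriers had small ratios, turned with the channel or lacked a value on some arrays. Slc30a5 and Slc30a6, exporters of the secretory pathway, had means of 0.29 and 0.19 and passed with the orientation term alone (adjusted p = 0.00821 and 0.0275). Slc30a1, the exporter of the plasma membrane, read -0.06, -0.18, -0.66 and -0.53, so that it lay near 0 in one orientation and clearly below it in the other. Its mean was -0.36 ± 0.28 (SD, n = 4; adjusted p = 0.00706 with and 0.125 without the orientation term). Slc39a9 was lower by a small margin with the orientation term alone (mean -0.10, adjusted p = 0.0434). Slc39a1, an importer of the cell surface, turned with the channel, at -1.14 and -0.87 against 1.66 and 1.24, and did not pass (adjusted p = 0.142). Slc39a3 also turned, at 0.26, 0.25, -1.06 and -0.64 (adjusted p = 0.0547). Slc39a4, the importer of the gut and yolk sac, had a mean of -0.08 (adjusted p = 0.197). Slc30a7 was read on arrays 3 and 4 alone, at 0.79 and 1.18, and Slc30a3 on arrays 1 and 2 alone, at 0.17 and -0.14. Slc39a10 read 0.21, 0.84 and 5.04 on arrays 2, 3 and 4, too far apart to give a level.

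Iron and copper carriers gave 1 further member past both fits. Slc40a1, ferroportin, the exporter through which cells release iron, read 1.07, 1.14, 1.21 and 1.23, nearly the same on each array. Its mean of 1.16 ± 0.07 (SD, n = 4) was a 2.24-fold difference (adjusted p = 0.000496), and with any 1 array left out the adjusted p was at most 0.0161. Slc11a2, the importer of ferrous iron, had a mean of -0.08 (adjusted p = 0.192), and Slc11a1, its relative in macrophage phagosomes, read 0.81, 1.01 and the floor on arrays 1 to 3. Of the copper carriers, Slc31a1 was lower (-0.20 ± 0.12, SD, n = 4; adjusted p = 0.0119 with and 0.0999 without the orientation term), and Slc31a2 did not pass (mean 0.08). Slc41a3, of the magnesium carrier family, had a mean of -0.23 and passed with the orientation term alone (adjusted p = 0.0296). The tested endoderm markers were also called higher in MM, as given above, and their part in the zinc and iron ratios was not tested.

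**Figure D2:**
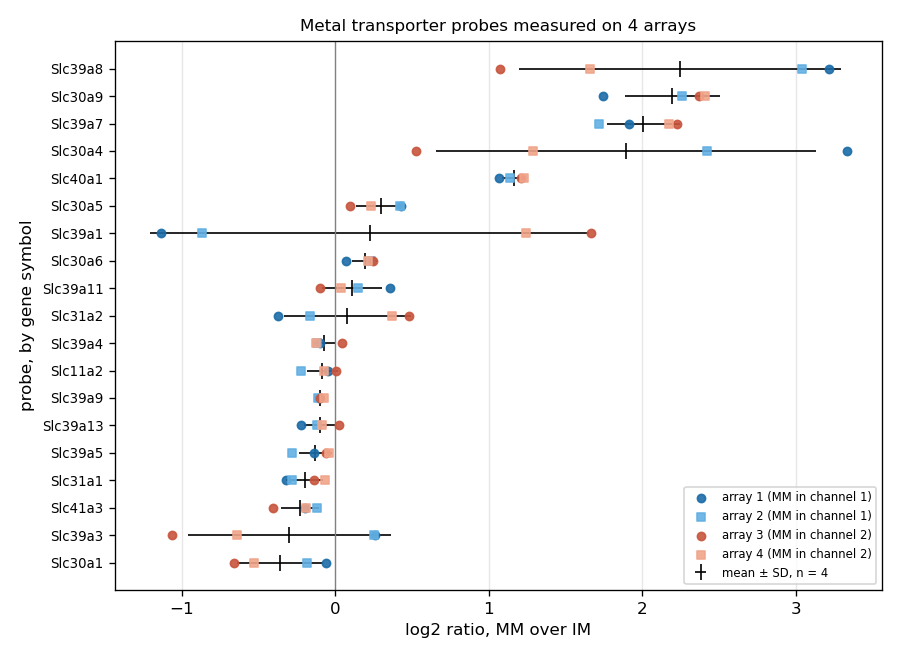
Log2 ratio (MM over IM) on each of the 4 arrays for every tested metal carrier probe, ordered by mean, with blue symbols for arrays 1 and 2, red symbols for arrays 3 and 4, and a bar for the mean ± SD. Slc39a7, Slc30a9 and Slc40a1 have all 4 points close together above 1, whereas Slc39a8 and Slc30a4 are higher on arrays 1 and 2 than on arrays 3 and 4.

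Iron and heme carriers listed for red cells were mixed. Of 9 tested probes on that list 3 were higher, 2 lower and 4 did not pass, with 2 higher and 1 lower in both fits. Slc25a39, which brings glutathione into mitochondria, read 0.76, 0.72, 0.61 and 0.48 and had a mean of 0.64 ± 0.13 (SD, n = 4; adjusted p = 0.00176). Slc25a38, the mitochondrial glycine carrier needed for heme synthesis, read -0.00, 0.20, 1.00 and 1.28, higher with MM in channel 2, and passed with the orientation term alone (adjusted p = 0.00696). Slc25a28, a mitochondrial iron importer, was lower at -0.38 ± 0.12 (SD, n = 4; adjusted p = 0.00248), and its relative Slc25a37 read -0.13, 0.07 and 0.10 on arrays 1, 2 and 4. Slc4a1, the anion exchanger of red cell membranes, had a mean of -0.18 ± 0.19 (SD, n = 4; adjusted p = 0.0277 with and 0.235 without the orientation term). The urea carrier Slc14a1 had 2 probes with means of -0.04 and 0.28, and neither passed. Slc29a1, a nucleoside carrier, did not pass (mean 0.05). Among erythroid markers Hbb-bh1 was lower at -0.85, whereas Hba-a1 read -0.40, -0.37, 0.98 and 0.88 and changed sign with the channel, and their part in these ratios was not tested.

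Nucleotide sugar and nucleoside carriers had 20 of 25 probes tested, with 7 higher, 4 lower and 9 not passing, and 3 higher and 0 lower in both fits. Family 35, whose best known members feed nucleotide sugars into the Golgi for glycosylation, made up 16 of the 20 tested probes, with 7 higher and 3 lower. Slc35f5, a member of that family, had the highest mean of all 170 tested members. It read 2.11, 2.20, 3.20 and 2.37, with array 3 highest, and its mean of 2.47 ± 0.50 (SD, n = 4) was a 5.55-fold difference (adjusted p = 0.00222). Slc35a4 read 0.65, 0.67, 0.44 and 0.59 (mean 0.59 ± 0.11, SD, n = 4; adjusted p = 0.00214). Slc35b2, which carries the sulfate donor PAPS into the Golgi, was higher by 0.35 ± 0.03 (SD, n = 4; adjusted p = 0.00284).

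Other carriers of this class passed in 1 fit or in neither. Slc35a1, the carrier of CMP-sialic acid, read 1.29 and 0.92 on arrays 1 and 2, against -0.09 and -0.05 on arrays 3 and 4 (adjusted p = 0.012 with and 0.3 without the orientation term). Slc35a2, the carrier of UDP-galactose, had a mean of -0.22 and Slc35b1 a mean of 0.16, and both passed with the orientation term alone (adjusted p = 0.0135 and 0.0274). The equilibrative nucleoside carrier Slc29a2 did not pass (mean 0.01, adjusted p = 0.94), and the concentrative carrier Slc28a3 read 0.53 and 2.29 on arrays 3 and 4 alone. Slc28a2, another concentrative carrier, read -0.27, 0.02 and the floor on both other arrays. Among probes read on arrays 1 and 2 alone, Slc35g3 read 3.38 and 4.25, and these values have no counterpart in the opposite orientation.

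Mitochondrial carriers of family 25 exchange metabolites across the inner mitochondrial membrane. Of 36 probes 31 were tested, and 14 were higher in MM (45.2%, against 23.8% of all tested probes), 7 lower (22.6%, against 38.1%) and 10 did not pass. In both fits 5 were higher (16.1%, against 13.6%) and 2 lower (6.45%, against 14.4%). The differences were small, with a median of 0.12 for the 30 without a floor value and no member of the family 2-fold in both fits. With arrays centred on their medians the counts were 15 higher and 5 lower, and with arrays scaled 13 and 7. Of the 14 higher calls, those that also passed without the orientation term were Slc25a13, Slc25a22, Slc25a39, Slc25a1 and Slc25a33.

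Slc25a13, citrin, exchanges aspartate for glutamate in the malate-aspartate shuttle. It read 0.68, 0.72, 0.73 and 0.70, almost equal on the 4 arrays, and its mean of 0.71 ± 0.02 (SD, n = 4) was a 1.63-fold difference (adjusted p = 0.000912). Its paralog Slc25a12 was lower by a small margin, at -0.12 ± 0.03 (SD, n = 4; adjusted p = 0.034 with and 0.119 without the orientation term). Slc25a12 did not pass whichever array was left out. Slc25a22, a glutamate carrier, read 0.61, 0.59, 0.75 and 0.78 (mean 0.68 ± 0.10, SD, n = 4; adjusted p = 0.000887). Slc25a1, which exports citrate for fatty acid synthesis, read 0.48, 0.51, 0.54 and 0.42 (mean 0.49 ± 0.05, SD, n = 4; adjusted p = 0.00259). Slc25a33, a pyrimidine nucleotide carrier, was higher by 0.35 ± 0.04 (SD, n = 4). The lower members in both fits were Slc25a28, given above, and Slc25a16 (-0.43 ± 0.12, SD, n = 4; adjusted p = 0.00443).

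The remaining mitochondrial carriers listed passed with the orientation term alone or were not tested. Slc25a4 and Slc25a5, adenine nucleotide carriers that export ATP, went opposite ways, at -0.29 ± 0.23 and 0.23 ± 0.16 (SD, n = 4; adjusted p = 0.007 and 0.02). Slc25a4 did not pass with array 1 left out, and Slc25a5 did not pass whichever array was left out. Slc25a10, the dicarboxylate carrier, read 1.22 and 0.81 on arrays 1 and 2, against 0.00 and 0.14 on arrays 3 and 4 (adjusted p = 0.0147). Slc25a11, the oxoglutarate carrier, and Slc25a20, the carnitine-acylcarnitine carrier, were higher by 0.16 and 0.21 (adjusted p = 0.0486 and 0.0113). Slc25a14, an uncoupling protein relative, was lower with a mean of -0.17 (adjusted p = 0.0219). Neither Slc25a14 nor Slc25a20 passed, whichever array was left out. Slc25a15, the ornithine carrier of the urea cycle, was read on arrays 1 and 2 alone, at 1.94 and 1.88. The phosphate carrier Slc25a3 read 0.23, 1.31 and 0.20 on arrays 1, 3 and 4.

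Amino acid and peptide carriers had 27 of 37 probes tested, with 4 higher, 12 lower and 11 not passing. Of the 12 lower calls 4 had a floor value, and in both fits 3 were higher and 3 lower. Slc3a2, the heavy chain that brings the light chains of family 7 to the cell surface, was higher in MM on every array. It read 0.92, 0.75, 1.07 and 1.02, and its mean of 0.94 ± 0.14 (SD, n = 4) was a 1.92-fold difference (adjusted p = 0.00119). Of the 9 tested light chain and cationic carrier probes of family 7, 0 were higher, 5 were lower, 1 of them with floor values, and 4 did not pass (4 lower with arrays centred or scaled). In both fits 0 passed, and over the whole array 23.8% of tested probes were higher and 38.1% lower.

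Slc7a5, the light chain that pairs with Slc3a2 to import leucine, read -0.05, 0.02, -0.18 and -0.10 (mean -0.08, adjusted p = 0.114). The cationic amino acid carriers Slc7a1 and Slc7a3 were lower by small margins with the orientation term alone, with means of -0.32 ± 0.16 and -0.28 ± 0.33 (SD, n = 4; adjusted p = 0.0272 and 0.0204). Slc7a9, the light chain of cystine uptake in the proximal tubule, read -0.26, -0.19, -0.47 and -0.60 (adjusted p = 0.00539 with and 0.0517 without the orientation term). Slc7a11, which imports cystine for glutathione synthesis, read -0.43 and -0.18 and then the floor on arrays 3 and 4. Its lower call (adjusted p = 0.000291) thus rests on floor values and did not pass without the orientation term (0.202). Slc7a10 did not pass (mean -0.28, adjusted p = 0.101). Slc7a7 and Slc7a8 were read on arrays 1 and 2 alone, at 0.37 and 0.28 and at 0.04 and 0.01. Slc7a2 had 1 probe at -2.20, 2.98 and the floor on both other arrays, which did not pass, and another at 0.19, 1.44 and 1.77 on arrays 2 to 4.

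Slc3a1, the heavy chain that partners Slc7a9 in the kidney tubule, showed why floor values were kept apart. It read 2.78 and 4.23 on arrays 1 and 2, against the floor on arrays 3 and 4. The fit with the orientation term called it lower (adjusted p = 0.0187), although it was high on both arrays that measured it. Slc23a4 of the ascorbate carrier family had the same pattern, with 0.89 and 1.47 before the floor on both other arrays. No direction is given for either gene.

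The sodium-coupled glutamine carriers of family 38 split by gene. Slc38a1 read 1.02, 0.61, 0.62 and 1.61, with array 4 highest, and its mean was 0.97 ± 0.47 (SD, n = 4; adjusted p = 0.029). With array 1, 2 or 4 left out it did not pass, and the adjusted p rose to as much as 0.195. Slc38a2, the carrier that cells induce when amino acids are scarce, read -0.55, -0.55, -0.83 and -0.69. Its mean of -0.65 ± 0.13 (SD, n = 4) was a 1.57-fold difference, higher in IM (adjusted p = 0.00158). Slc38a10 had a probe lower in both fits (-0.21 ± 0.04, SD, n = 4, adjusted p = 0.01), which did not pass with array 1, 2 or 4 left out. A second Slc38a10 probe turned with the channel, at -1.56, -1.25, 1.09 and 0.24 (mean -0.37), and did not pass. Slc38a4 had 1 probe at -0.06, not passing, and 1 at 0.23, higher with the orientation term alone (adjusted p = 0.00818). Slc38a3, the glutamine carrier of liver and proximal tubule, read 0.41, 0.32 and the floor on arrays 1 to 3.

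Among other amino acid carriers, Slc43a1, which carries branched-chain amino acids, was higher in both fits with a mean of 0.34 ± 0.12 (SD, n = 4; adjusted p = 0.0197). It did not pass with array 1 or 2 left out, where the adjusted p rose to as much as 0.147. The neutral amino acid exchangers Slc1a4 and Slc1a5 did not pass, with means of 0.08 and 0.07 (adjusted p = 0.106 and 0.156).

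Glutamate uptake carriers of family 1 and the transmitter carriers had few measured values. Slc1a3, the glutamate carrier of astrocytes and radial glia, had 1 probe past both fits, at -0.66, -0.54, -0.79 and -0.87. Its mean of -0.71 ± 0.15 (SD, n = 4) was a 1.64-fold difference, lower in MM on each array (adjusted p = 0.00152). The other Slc1a3 probes read -1.10 and -0.26 with the floor on both other arrays, and 2.55, 2.36 and the floor on arrays 1 to 3, so the probes of this gene did not share a direction on arrays 1 and 2. Slc1a1, the neuronal and kidney glutamate carrier, had 1 probe not passing (mean -0.06) and 1 at 1.00, -0.38 and the floor on both other arrays. Slc1a2 was read on arrays 1 and 2 alone, at -1.99 and -1.03. Neural markers were lower in both fits for 4 of 8 tested probes, among them Sox2 at -0.93 and Tubb3 at -0.49, and their part in the Slc1a3 ratio was not tested.

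Of the transmitter and vesicle carriers 8 of 22 probes were tested, with 2 higher, 2 lower and 4 not passing. Slc6a6, the taurine carrier, read 1.70, 1.77, 1.59 and 1.62, nearly the same on every array. Its mean of 1.67 ± 0.08 (SD, n = 4) was a 3.18-fold difference (adjusted p = 0.000316), and with any 1 array left out the adjusted p was at most 0.0149. Slc6a21, of the same family, read 0.74, 0.72, 1.27 and 1.14 (mean 0.97 ± 0.28, SD, n = 4; adjusted p = 0.000897). Slc17a7, a vesicular glutamate carrier, read -0.79 and -0.62 against -0.01 and -0.03 and passed with the orientation term alone (adjusted p = 0.00664).

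Most carriers that define a transmitter were read on arrays 1 and 2 alone or were split by probe. The norepinephrine carrier Slc6a2 had 1 tested probe, at 0.00 ± 0.02 (SD, n = 4; adjusted p = 0.888). The serotonin carrier Slc6a4 read -0.89 and -0.71 on arrays 1 and 2, the vesicular acetylcholine carrier Slc18a3 -0.78 and -0.50, the glycine carrier Slc6a9 1.23 and 0.42, and the vesicular GABA carrier Slc32a1 0.05 and -0.73. The dopamine carrier Slc6a3 read -0.48, -2.85 and 0.05 on arrays 1 to 3. The choline carrier Slc5a7 read 2.94, 3.61 and the floor on arrays 1, 2 and 4. The vesicular glutamate carrier Slc17a6 read 2.63 and 0.27 with 1 probe and 0.86 on array 4 with another. These last 7 genes lacked a value on at least 1 array and were not tested.

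Sugar and lactate carriers were poorly covered, with 8 of 21 probes of the sugar class tested, of which 1 was higher and 3 lower. The class takes in all of family 5, which also holds carriers of iodide, choline and vitamins, and of which only Slc5a1 was tested. Slc37a3, of the sugar phosphate exchanger family, read 0.66, 1.16, 1.69 and 1.66, lowest on array 1. Its mean of 1.29 ± 0.49 (SD, n = 4) was a 2.45-fold difference (adjusted p = 0.00291), and a second probe read 1.97 and 1.04 on arrays 1 and 2 alone. Slc16a1, the lactate and pyruvate carrier MCT1, read 0.95, 0.85, 0.99 and 1.01. Its mean of 0.95 ± 0.07 (SD, n = 4) was a 1.93-fold difference (adjusted p = 0.000749).

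The glucose carriers gave no tested member higher in MM. Slc2a1, the main glucose carrier of embryonic tissue, read 0.59, 1.02 and the floor on arrays 1, 2 and 4 and was not tested. Slc2a3, its high-affinity relative, read -0.59 and -0.32 on arrays 1 and 2 alone, and the liver form Slc2a2 read -1.48, -0.66 and the floor on arrays 1 to 3. The insulin-responsive Slc2a4 and the intracellular Slc2a8 did not pass (means -0.33 and 0.04). The sodium-glucose carrier Slc5a1 did not pass (mean -0.28), and Slc5a2 read 0.17 and 0.27 on arrays 1 and 2 alone. Slc2a5, a fructose carrier, and Slc50a1, a sugar exporter, were lower in both fits, at -0.33 ± 0.08 and -0.34 ± 0.02 (SD, n = 4; adjusted p = 0.00444 and 0.0028). Slc37a4, the glucose 6-phosphate carrier of the endoplasmic reticulum, had a mean of -0.20 and passed with the orientation term alone (adjusted p = 0.0179). Of the other monocarboxylate carriers, Slc16a3 read 0.80, 0.38, -0.69 and -0.28 and did not pass, and Slc16a7 read 1.18, 0.69 and -0.94 on arrays 1, 2 and 4.

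Organic ion and monocarboxylate carriers had 23 of 47 probes tested, with 3 higher and 7 lower, 3 of the latter with floor values. Slco3a1, an organic anion carrier that takes up prostaglandins and thyroid hormone, was the member furthest below 0 in both fits. It read -0.84, -0.70, -1.003 and -0.97, and its mean of -0.88 ± 0.14 (SD, n = 4) was a 1.84-fold difference, higher in IM (adjusted p = 0.0011). Slc22a16, a carnitine and organic cation carrier, read -0.74, -0.68, -0.85 and -0.88. Its mean of -0.79 ± 0.10 (SD, n = 4) was a 1.73-fold difference, also higher in IM (adjusted p = 0.000829). Slc22a23 was lower in both fits at -0.22 ± 0.08 (SD, n = 4; adjusted p = 0.0177), and did not pass with array 3 or 4 left out. The carnitine carrier Slc22a5 read 1.18, 0.80, 0.16 and 0.32 and passed with the orientation term alone (adjusted p = 0.01).

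Bicarbonate, proton and inorganic ion carriers had 17 of 35 probes tested, of which 1 was higher (5.88%, against 23.8% of all tested probes), 9 were lower (52.9%, against 38.1%) and 7 did not pass. Their median was -0.13, and in both fits 1 was higher and 3 lower (17.6%, against 14.4%). Centring the arrays on their medians left 1 higher and 5 lower, with 30.9% of all probes lower under that setting. The 5 tested probes of the bicarbonate family 4, of which 2 belong to Slc4a3, were all lower with the orientation term, 3 of them with arrays centred, and 2 passed in both fits. Those were Slc4a2, an anion exchanger, at -0.31 ± 0.11, and Slc4a10, a sodium-coupled bicarbonate carrier, at -0.24 ± 0.03 (SD, n = 4; adjusted p = 0.00355 and 0.00739). Slc4a10 did not pass with array 3 or 4 left out. Slc8a1, the sodium-calcium exchanger of heart muscle, was lower with 1 probe at -0.38 ± 0.06 (SD, n = 4; adjusted p = 0.00463, and 0.0504 on arrays 3 and 4 alone). A second Slc8a1 probe read 0.92, 0.34 and the floor on arrays 1, 2 and 4, so the probes of this gene differed in sign on arrays 1 and 2.

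Slc20a1 was the exception in this class and was higher on each array. It is a sodium-dependent phosphate carrier found in most cells and read 2.12 and 1.94 on arrays 1 and 2, against 0.92 and 1.23 on arrays 3 and 4. The mean was 1.55 ± 0.57 (SD, n = 4), a 2.94-fold difference (adjusted p = 0.00125 with and 0.0202 without the orientation term). Its paralog Slc20a2 did not pass (mean -0.08, adjusted p = 0.68).

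Carriers that mark segments of the mature nephron were mostly not measured well enough to compare. Of the list, 5 probes were tested, with 1 higher (Slc20a1), 2 lower with floor values and 2 not passing. The organic anion carrier Slc22a6 of the proximal tubule read 0.99, 0.10 and the floor on both other arrays, and the organic cation carrier Slc22a2 read 0.04, -0.04 and the floor on both other arrays. Slc12a2, the widely expressed sodium-potassium-chloride carrier, did not pass (mean 0.04). The thiazide-sensitive carrier Slc12a3 read 0.23, 1.02 and 1.36 on arrays 2 to 4. The phosphate carrier Slc34a1 read -1.29 and -1.16 on arrays 1 and 2 alone, and Slc34a2 read -0.65, -0.19 and 0.20 on arrays 1 to 3.

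The remaining nephron carriers also lacked a value on at least 1 array. The sulfate carrier Slc13a1 read -1.13 and -2.55 and the dicarboxylate carrier Slc13a3 -0.68 and -0.24, both on arrays 1 and 2 alone. The organic anion carrier Slc22a8 read -1.14, -0.53 and 0.55 on arrays 1 to 3, and the sodium-proton exchanger Slc9a3 read -0.13, 1.17 and the floor there. The anion exchanger Slc26a4 read 1.20, 1.59 and the floor, and the bicarbonate carrier Slc4a4 0.39, 0.36 and -0.47, on arrays 1, 2 and 4.

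Vitamin, lipid and acyl carriers had 15 of 23 probes tested, with 5 higher, 3 lower (1 with a floor value) and 7 not passing. Slc44a1, a choline carrier, was the member past both fits, at 0.37, 0.38, 0.68 and 0.62 (mean 0.51 ± 0.16, SD, n = 4; adjusted p = 0.00148). A second Slc44a1 probe read 0.64, -0.33 and 0.72 on arrays 1, 2 and 4. The fatty acid carriers split, with Slc27a4 and Slc27a2 higher at 0.46 and 0.24 and Slc27a1 lower at -0.27, and each of the 3 passed with the orientation term alone. The thiamine carrier Slc19a2 had a mean of 0.31 and passed with the orientation term alone (adjusted p = 0.0482). It did not pass with array 1, 2 or 3 left out (0.25, 0.19 and 0.0903), with array weights, or with probes of 3 or more values included. The folate carrier Slc19a1 had probes at -0.15 and 0.24 that did not pass. Slc46a2 read 0.43, 0.04, 2.48 and 3.02, close to 0 in one orientation and high in the other (adjusted p = 0.00389 with the orientation term, and 0.0559 with array 1 left out). Slc66a2, of a family known for lysosomal amino acid carriers and left without a class here, had the same shape at 0.76, 0.01, 2.34 and 2.41 (adjusted p = 0.00577), and neither gene passed without the orientation term. The ascorbate carrier Slc23a2 did not pass (mean 0.12), Slc23a1 read -1.08 and -0.52 on arrays 1 and 2 alone, and the acetyl-CoA carrier Slc33a1 read 1.13, 0.42 and 0.71 on arrays 1, 2 and 4.

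**Figure D3:**
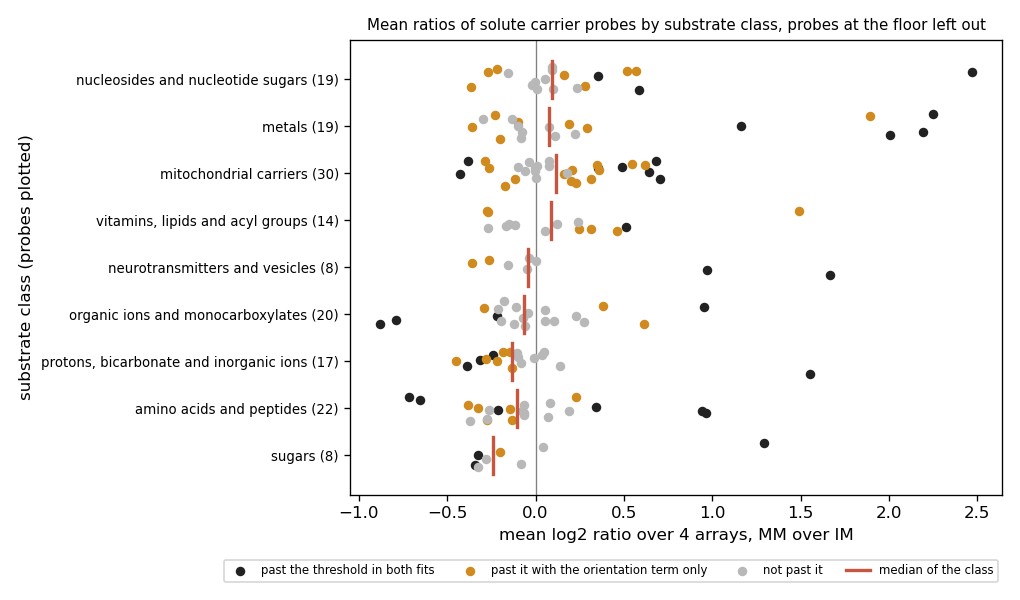
Mean log2 ratio (MM over IM, 4 arrays) of each tested solute carrier probe without a floor value, by substrate class, with class medians as vertical lines. Medians of the classes shown lie between -0.24 (sugars) and 0.12 (mitochondrial carriers), and Slc66a2, which has no class, is not plotted. Of the few members above 1, Slc39a8, Slc30a9, Slc39a7, Slc30a4 and Slc40a1 are metal carriers. The others, Slc35f5, Slc6a6, Slc20a1, Slc46a2 and Slc37a3, each belong to a different class.

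The 34 members past both fits had the same sign on all 4 arrays, which that pair of fits favours and which is therefore a description. Of them, 29 passed with each array left out in turn. The others were Slc38a1, Slc43a1, Slc38a10, Slc4a10 and Slc22a23, as given above. On arrays 1 and 2 alone 28 passed, and on arrays 3 and 4 alone 29. Of the 62 members past the threshold with the orientation term only, 11 passed with each array left out in turn. Among those 11, only Slc35d3 and Slc66a2 held no floor value. The others were at the floor on both arrays 3 and 4, which adds no spread to the error, so their passing is no sign of a stable ratio. Among those 62, 16 had a mean of opposite sign in 1 of the orientations, 9 of these without a floor value. Both groups were chosen by p-values from the same 4 arrays, so the difference between them is also a description.

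**Figure D4:**
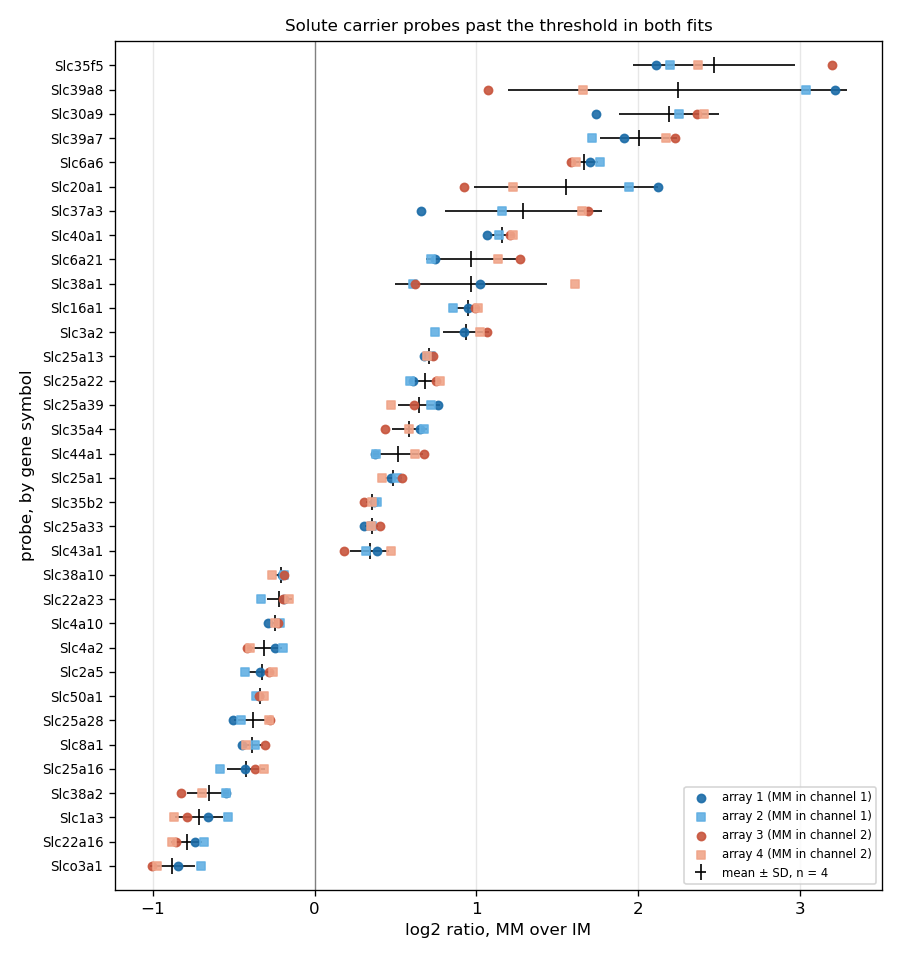
Log2 ratio (MM over IM) on each of the 4 arrays for the 34 solute carrier probes past the threshold in both fits, ordered by mean, with blue symbols for arrays 1 and 2, red symbols for arrays 3 and 4, and a bar for the mean ± SD. The means run from -0.88 (Slco3a1) to 2.47 (Slc35f5), and Slc39a8 and Slc20a1 show the widest gaps between arrays.

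Where a gene had several probes, few could be compared in the test. Among 19 genes with several probes 10 had at least 2 that were tested, and 0 genes had calls in opposite directions. Opposite calls need 2 probes that passed, which only Slc1a3, Slc24a2 and Slc4a3 had, and a Slc1a3 call rests on floor values. The 0 is thus no measure of agreement. Untested probes of Slc1a3 and Slc8a1 differed in sign from tested ones on arrays 1 and 2, as given above. Among tested probes, signs of the means differed for Slc14a1, Slc19a1 and Slc38a4. With untested probes taken in, they also differed for Slc7a2, where floor values enter, and for Slc35b4, Slco1b2 and Slc6a2.

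Other classes of membrane transporter, from lists written for this purpose, are given for comparison with no test of the difference. Of 26 tested ABC transporter probes 10 were higher and 9 lower (6 and 2 in both fits), and of 41 tested P-type and V-type ATPase probes 12 were higher and 14 lower (7 and 8). Of 6 tested aquaporin probes 0 were higher and 4 lower, 2 of these with a floor value (0 and 1 in both fits). Of 29 tested potassium channel probes 4 were higher and 13 lower, 5 of these with a floor value (1 and 3 in both fits). Over the whole array 23.8% of tested probes were higher and 38.1% lower, and in both fits 13.6% and 14.4%.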

How the data were processed

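RNA of the tissues was compared on 4 two-colour arrays, for which the authors deposited 1 log2 ratio per probe. Per the labels' protocols, the authors quantified spots with Imagene 5.5, reversed the channels of arrays 3 and 4, fitted a lowess curve on 20% of the data and raised control values under 10 to 10. The sources used here do not give background correction, spot flags or filters. Without intensities the signal over background is unknown, and precision is limited by the number of arrays. Base 2 was inferred: 98.9% to 100% of ratios under 1 lay on whole thousandths (tolerance 0.01 thousandths).

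Arrays 1 to 4 held 21509, 21599, 15812 and 16242 values, with 16, 8, 1672 and 1805 at the floor. The 14184 probes with 4 values were fitted with limma 3.58.1 (lmFit and eBayes) in R 4.3.3, with terms for tissue and channel orientation, Benjamini-Hochberg adjustment over all of them and a threshold of 0.05. Calls "in both fits" also passed without the orientation term. Printed p-values are from the fit with that term unless stated. The fit was also run on data simulated from the same model, which checks the code and not whether the model suits these arrays. SDs over the 4 arrays include the gap between orientations. The "floor" is a deposited log2 ratio of -6.64.

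Gene symbols are the platform's: 17252 probes had 1 symbol, 156 several and 5294 none. All 273 member probes matched a RefSeq gene table (GRCm38.p6), used for names. Substrate classes follow family numbers. Family 66 was given no class, a choice made after the table was seen.

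Members, classes and gene lists were chosen with earlier results of these data known. Genes with printed values were the members past both fits of largest mean in each direction (the 15 largest, or the 10 largest where few reached 2-fold), the extreme member past both fits of each class, every measured gene of the carrier lists, and members at the floor on arrays 3 and 4 with a mean of at least 1 on arrays 1 and 2. This named 125 probes of 115 genes, and other members named were chosen after their values were seen. The alternatives tried were no orientation term, floor values left out or set to missing, centring, scaling, 3 or more values, array weights, each array left out, and each orientation alone.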

Additional observations from a re-analysis of the deposited data

Results flagged for a closer look

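Of the 85 tested probes named by rule, 3 had 1 array apart from the others by more than Dixon's critical share of the whole range. Chance alone would mark about 1 in 20 if the arrays were interchangeable. Arrays of the same orientation were closer to each other than to the rest, so that rate does not hold here. Slc7a1, a cationic amino acid carrier, read -0.0877 on array 4 and between -0.41 and -0.38 on the other arrays. Slc7a10 read 0.13 on array 2 and between -0.48 and -0.38 on the others. Slc39a4, a zinc importer, read 0.0412 on array 3 and between -0.12 and -0.10 on the others.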

How the results depend on the processing

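The counts of solute carrier probes called were 45 higher and 51 lower (26.5% and 30.0%, against 23.8% and 38.1% of all tested probes). Without the orientation term they were 21 and 13 (12.4% and 7.65%, against 13.6% and 14.4%). With each array left out in turn they ran from 29 to 30 higher and from 32 to 38 lower. The member shares then ran from 17.1% to 17.6% and from 18.8% to 22.4%. Those of all tested probes ran from 17.5% to 19.1% and from 23.2% to 29.5%. On arrays 1 and 2 alone the counts were 33 and 30 (19.4% and 17.6%, against 19.1% and 20.5%). The other alternatives gave 37 to 52 higher (20.4% to 30.6%, against 19.5% to 27.3%) and 37 to 59 lower (21.8% to 30.0%, against 30.7% to 38.0%). The cause of these differences was not tested. Of the 34 members past both fits, 25 passed under all 12 other settings and 0 changed sign under any of them. Among the 85 tested probes named by rule, ratios that passed the threshold in either the reported fit or the alternative turned sign on arrays 1 and 2 alone for Slc14a1 (-0.64), Slc1a1 (0.31), Slc22a2 (0.0010), Slc22a6 (0.55), Slc23a4 (1.18), Slc35a2 (0.0826), Slc37a4 (0.0641), Slc39a1 (-1.0032) and Slc3a1 (3.51). On arrays 3 and 4 alone they turned for Slc27a2 (-0.0406), Slc35a1 (-0.0695) and Slc7a3 (0.0013). In each of these settings a further 6 ratios turned sign without passing in either fit, as did 1 with centring and up to 3 with 1 array left out. Slc1a1, Slc22a2, Slc22a6, Slc23a4 and Slc3a1 are at the floor on arrays 3 and 4, so arrays 1 and 2 alone leave the floor out. The median ratio of the members lay between -0.09 and 0.00 over all settings. Each ratio already pairs both tissues of its array, and with 1 group of arrays and 1 ratio per array no further pairing was possible.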
